A study of Mus musculus with 8 samples.

Results

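The mitochondrial route to apoptosis was followed through 8 genes: Cycs, Apaf1, Casp9, Casp6, Diablo, Xiap, Birc2 and Birc3. They were taken by name from the authors' deposited tables, where 8 of 39175 gene rows carry these names. All 8 were tested and reached 1 FPKM in a group in both genotypes. The cells were fibroblasts from mouse embryos of the C57BL/6J strain, supplied by another laboratory. One genotype was p53-/-Cry1-/-Cry2-/-, called p53CryKO here, which lacks the tumour suppressor p53 and both cryptochromes, repressors of the circadian clock. The other was p53-/-, called p53KO. Both genotypes lack p53, untreated cells included, so no group with p53 was compared. The deletions came from the mice themselves and no driver gene or cell type is named for them. UV-treated cells received 40 J/m2 from a germicidal lamp emitting mainly at 254 nm and were harvested 16 h later, and untreated cells served as controls. The 4 groups were UV-treated and untreated p53CryKO cells and UV-treated and untreated p53KO cells. Each group had 2 biological replicates, 8 samples in all. The labels do not say whether the replicates came from separate animals, so p-values measure the spread between these samples, which may be technical.

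Cytochrome c carries electrons between respiratory complexes in the space between the mitochondrial membranes. Once released into the cytosol it binds APAF1, which assembles into the apoptosome and recruits caspase-9, and caspase-9 then cleaves the executioner caspases. Inhibitor of apoptosis proteins (IAPs) restrain caspases or steer signalling away from death, and SMAC, the product of Diablo, leaves the mitochondria with cytochrome c and binds IAPs. These steps happen to proteins, so transcript levels measure neither release nor cleavage.

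The tables hold 1 FPKM per gene and group (fragments per kilobase of transcript, scaled for library size), pooled over replicates by the authors, so a level has no SD. Fold changes were recomputed from the FPKM in the authors' deposited tables, and each standard error (SE) is the one implied by the authors' test statistic. The call rule was a q in the authors' deposited tables no greater than 0.05. In p53CryKO cells 3984 genes were called higher and 4316 lower, 48.0% of calls being higher, and in p53KO cells 3796 and 4269, 47.1% being higher. Scaling the groups to equal summed FPKM times exonic length, a stand-in for equal fragments, lowered every log2 fold change by 0.79 in p53CryKO and 0.78 in p53KO cells and left 11.0% and 12.3% of calls higher. Scaling to equal FPKM of protein-coding genes lowered them by 1.02 and 1.01 and left 6.09% and 7.16% higher. Rises and falls below are relative to the authors' scale, where the median gene reaching 1 FPKM changed by 0.05 in either genotype. Fibroblast markers were all detected. Of these 10, 5 were called higher and 4 lower in p53CryKO cells, and 4 higher and 6 lower in p53KO cells. Of 3 neural markers only Tubb3 was tested, and it was not called. Its FPKM was 11.4 after UV and 44.8 untreated in p53CryKO cells, and 10.3 and 48.1 in p53KO cells. Of 3 endothelial markers only Kdr was tested, called higher in p53KO cells and not called in p53CryKO cells. Summed epithelial markers reached 11.1 FPKM after UV and 6.72 untreated in p53CryKO cells, against 0.325 after UV and 0.276 untreated in p53KO cells, and 3 of the 4 were tested in p53CryKO cells (2 higher, 1 lower) and 1, not called, in p53KO cells. Of 5 macrophage and blood markers 2 were tested and 1, Cd68, was higher in each genotype; they summed to 11.5 FPKM after UV and 3.05 untreated in p53CryKO cells, and to 12.8 after UV and 2.92 untreated in p53KO cells. Ptprc, the pan-leukocyte marker, was below 0.01 in each group, and Emr1 was listed at 0 in all 4. The part of these markers in the results was not tested. Transcripts of Trp53, Cry1 and Cry2 were counted in each group, so FPKM over the whole gene does not check the genotype labels.

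After UV the 8 transcripts did not move one way. Cycs, the trigger, rose 3.64-fold in p53CryKO and 4.64-fold in p53KO cells in the authors' deposited tables. Casp9, the initiator, Casp6, the executioner, and the IAP gene Birc2 fell in both genotypes. Apaf1, the scaffold, and Birc3 fell in p53CryKO cells and were not called in p53KO cells, and Xiap was not called in either. Diablo was called higher in both, but its direction turned under both other scalings. In a bulk sample, fewer cells of a kind and less RNA per cell cannot be told apart.

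In p53CryKO cells 2 of the 8 genes were called higher and 5 lower, where 52.3% of all 15872 tested genes were called, 25.1% higher and 27.2% lower. In p53KO cells the counts were 2 higher and 3 lower, where 50.9% of 15857 tested genes were called, 23.9% higher and 26.9% lower. About every other gene was called, and whether the 8 differ from that background was not tested. The median log2 fold change of the 8 genes was -0.89 in p53CryKO and -0.69 in p53KO cells, and that of all tested genes 0.09 and 0.10. Of the 8, 2 were called higher in both genotypes (20.8% of the 14933 genes tested in both), 3 lower in both (24.1%), and 1 in neither (38.1%). Each of the 8 had fold changes of the same sign in both genotypes.

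**Figure D1:**
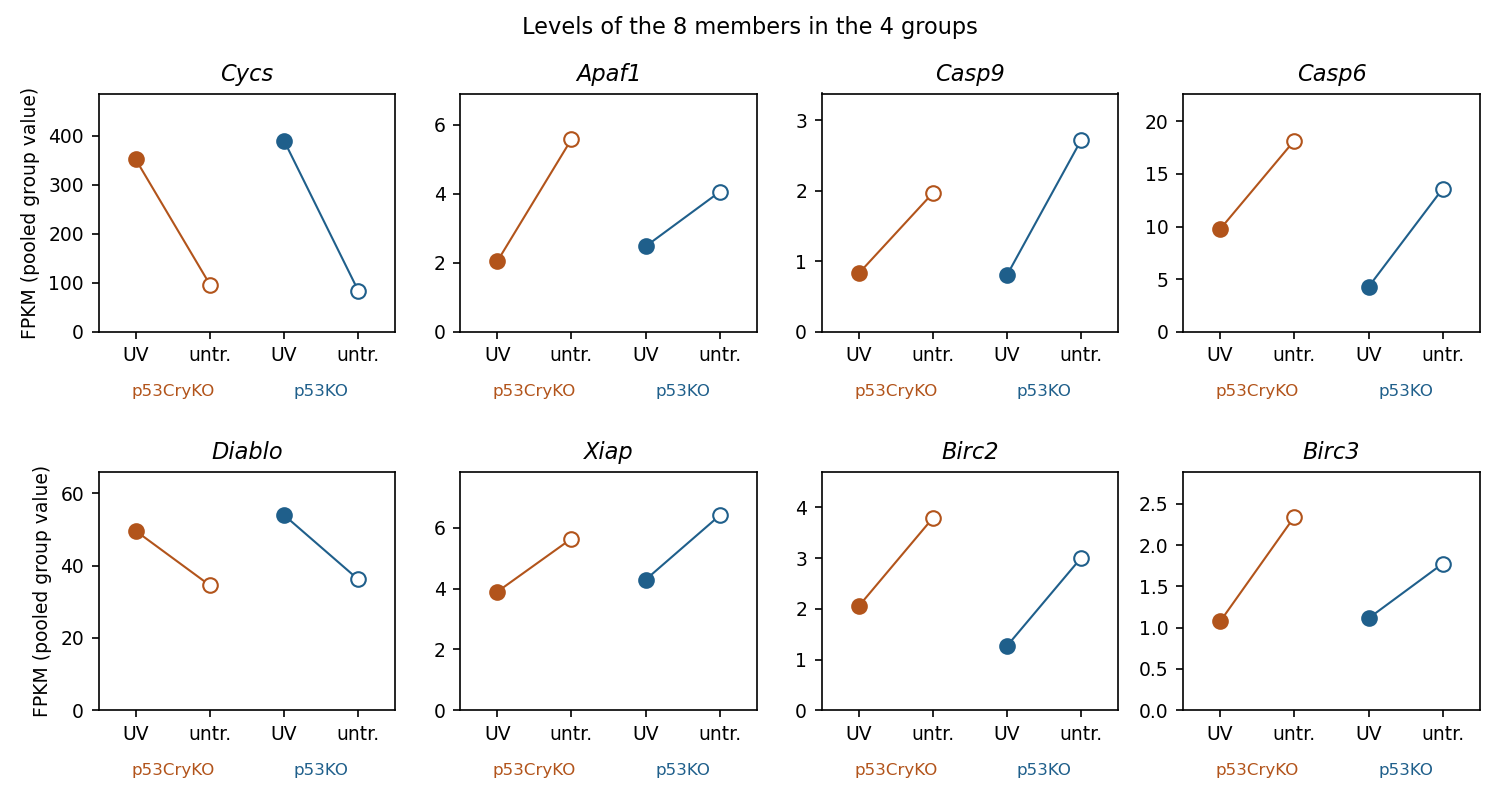
FPKM of the 8 genes on linear axes from 0, a panel per gene, with UV-treated (filled) left of untreated (open) groups and p53CryKO (orange) left of p53KO (blue); each point is the authors' pooled value of 1 group. Cycs and Diablo stand higher after UV in both genotypes on the authors' scale, with Diablo turning lower under the other scalings, and the other 6 genes stand lower.

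Cycs encodes cytochrome c. It lies on chromosome 6 (50562563 to 50566538, minus strand, GRCm38; ENSMUSG00000063694). Its 250 bases before the RefSeq start (GRCm38.p6, chr6:50566570-50566819, minus strand) are shown because the gene had the largest response of the 8 and because they hold a match to the cyclic AMP response element (CRE, TGACGTCA, in capitals).
Cycs: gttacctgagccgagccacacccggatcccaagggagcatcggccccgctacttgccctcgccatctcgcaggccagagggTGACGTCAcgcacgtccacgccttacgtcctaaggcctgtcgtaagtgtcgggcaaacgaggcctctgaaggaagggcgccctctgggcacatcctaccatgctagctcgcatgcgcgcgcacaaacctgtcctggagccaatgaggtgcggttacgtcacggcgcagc
The match spans positions -169 to -162 relative to the start, and 1.55% of 32851 promoter windows of that length in the RefSeq table hold one. A match describes letters and is not evidence that a factor binds.

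Cycs had 351 FPKM in UV-treated p53CryKO cells, against 96.4 in untreated p53CryKO cells, and 389 in UV-treated p53KO cells, against 83.9 in untreated p53KO cells (authors' deposited tables). Both UV groups were far above both untreated groups. The log2 fold change was 1.87 (implied SE 0.35, q = 0.000161 in the authors' deposited table) in p53CryKO and 2.21 (implied SE 0.41, q = 0.000169) in p53KO cells. Cycs thus ranked at percentile 94.0 of 11783 genes with FPKM of 1 or more in p53CryKO cells and 95.6 of 11951 in p53KO cells, a rank that a common shift does not change. At equal coding FPKM its log2 fold changes were still positive, 0.84 in p53CryKO and 1.21 in p53KO cells. In all 4 groups Cycs had the highest FPKM of the 8 genes.

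The reading of Cycs is limited by near copies. GENCODE M21 lists 10 other genes with at least 90% identity over 100 bases or more of its 315-base coding sequence, 9 of them processed pseudogenes, and Gm10053 matches it at 100%. Of these, 7 were listed in the authors' deposited tables, 5 were tested and 3 were called higher in each genotype. Their summed FPKM was 57.8 after UV and 13.7 untreated in p53CryKO cells, and 41.8 after UV and 9.25 untreated in p53KO cells. The copies together held less FPKM than Cycs in every group and were higher after UV with it. The sources used here do not say how fragments were divided among the copies.

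Apaf1 encodes the scaffold that cytochrome c opens (chromosome 10, 90989311 to 91082770, minus strand; ENSMUSG00000019979). In the authors' deposited tables it had 2.04 FPKM in UV-treated p53CryKO cells, against 5.57 in untreated p53CryKO cells, and 2.47 in UV-treated p53KO cells, against 4.05 in untreated p53KO cells. The UV groups lay close to each other and the untreated groups apart, p53CryKO being the higher. These levels were set across tables normalized separately, and the difference between genotypes in untreated cells was not tested. Apaf1 fell in p53CryKO cells (log2 fold change -1.45, implied SE 0.68, q = 0.00518 in the authors' deposited table). In p53KO cells it was not called (-0.71, implied SE 0.65, 95% interval -1.98 to 0.56, q = 0.171). The p53CryKO call was lost where p was taken as a normal p of the test statistic (recomputed q = 0.0748). At equal fragments Apaf1 was called lower in p53KO cells too (-1.50, recomputed q = 0.00171). This last q used the error implied by the authors' p, which is smaller than the implied SE of 0.65.

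Casp9 encodes caspase-9, the initiator activated on the apoptosome (chromosome 4, 141793612 to 141815976, plus strand; ENSMUSG00000028914). It had 0.827 FPKM in UV-treated p53CryKO cells, against 1.97 in untreated p53CryKO cells, and 0.804 in UV-treated p53KO cells, against 2.72 in untreated p53KO cells (authors' deposited tables). It was the lowest of the 8 genes in both UV groups, and it passed an FPKM minimum of 1 through the untreated groups alone. Casp9 fell in p53CryKO cells (log2 fold change -1.25, implied SE 0.46, q = 0.000311 in the authors' deposited table) and in p53KO cells (-1.76, implied SE 0.50, q = 0.000169). If the smallest step of FPKM times kb is read as 1 fragment, the UV-treated groups held about 246 fragments of Casp9 in p53CryKO and 208 in p53KO cells, but that reading was not checked and total counts per sample are unknown. The annotated span of Casp9 overlaps 2 other genes, Cela2a and Ctrc, and the sources used here do not say whether counting used strand.

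Casp6 encodes caspase-6, an executioner known for cleaving nuclear lamin A (chromosome 3, 129901425 to 129914103, plus strand; ENSMUSG00000027997). In the authors' deposited tables it had 9.76 FPKM in UV-treated p53CryKO cells, against 18.2 in untreated p53CryKO cells, and 4.26 in UV-treated p53KO cells, against 13.6 in untreated p53KO cells. Both UV groups were below both untreated groups, and p53KO cells were lower than p53CryKO cells in either state, by levels set across tables normalized separately. Casp6 fell in p53CryKO cells (log2 fold change -0.90, implied SE 0.27, q = 0.000161 in the authors' deposited table) and in p53KO cells (-1.67, implied SE 0.31, q = 0.000169). Among genes with FPKM of 1 or more these responses stood at percentile 25.4 in p53CryKO and 12.5 in p53KO cells.

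Diablo encodes SMAC, the IAP antagonist (chromosome 5, 123509765 to 123524176, minus strand; ENSMUSG00000029433). It had 49.6 FPKM in UV-treated p53CryKO cells, against 34.5 in untreated p53CryKO cells, and 54.0 in UV-treated p53KO cells, against 36.2 in untreated p53KO cells (authors' deposited tables). The genotypes were close in both states, by levels set across tables normalized separately. Diablo was called higher in p53CryKO cells (log2 fold change 0.52, implied SE 0.26, q = 0.00892 in the authors' deposited table) and in p53KO cells (0.58, implied SE 0.29, q = 0.0104), and both fold changes were negative at equal fragments (-0.27 and -0.21) and at equal coding FPKM (-0.50 and -0.43). At equal coding FPKM it was called lower in p53CryKO cells (recomputed q = 0.0109) and missed the threshold in p53KO cells (recomputed q = 0.0578). Both used the error implied by the authors' p, which is smaller than the implied SE. On the authors' scale the call was lost with a normal p of the test statistic (recomputed q = 0.0968 in p53CryKO and 0.113 in p53KO cells) and, in p53KO cells, at a q threshold of 0.01. Its rank, percentile 65.1 in p53CryKO and 66.0 in p53KO cells, shows a response somewhat above that of the median gene. The span of Diablo overlaps 5 other annotated genes, among them B3gnt4 and Gm49027, and Gm49027 shares its coding sequence at 99.2% identity.

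**Figure D2:**
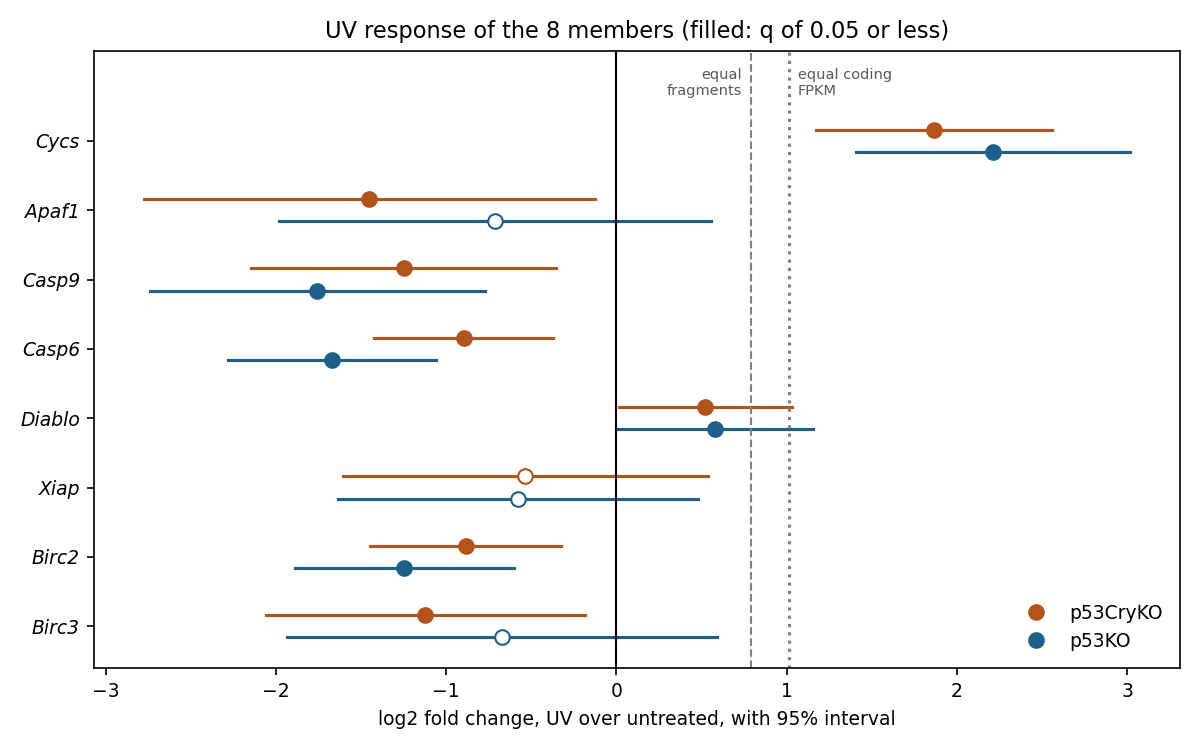
Log2 fold change of FPKM after UV over untreated for the 8 genes, with 95% intervals from the implied SE, p53CryKO (orange) above p53KO (blue), filled where q is 0.05 or less. The dashed and dotted vertical lines mark where 0 would lie at equal fragments (0.79 in p53CryKO) and at equal coding FPKM (1.02); Cycs stays to the right of both lines and Diablo falls to their left.

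Xiap encodes the IAP that binds and inhibits caspases directly (chromosome X, 42059679 to 42109656, plus strand; ENSMUSG00000025860). It had 3.89 FPKM in UV-treated p53CryKO cells, against 5.64 in untreated p53CryKO cells, and 4.29 in UV-treated p53KO cells, against 6.41 in untreated p53KO cells (authors' deposited tables). Levels were lower after UV by a similar margin in either genotype. Neither difference was called: the log2 fold change was -0.53 in p53CryKO cells (implied SE 0.55, 95% interval -1.61 to 0.54, q = 0.216 in the authors' deposited table) and -0.58 in p53KO cells (implied SE 0.54, 95% interval -1.63 to 0.48, q = 0.177). The intervals reach past a halving, so a fall of that size is not excluded by them. A processed pseudogene, Gm17791, matches the Xiap coding sequence at 91.7% identity. At equal fragments Xiap was called lower in both, with a recomputed q = 0.000656 in p53CryKO and 0.000462 in p53KO cells. Each recomputed q used the error implied by the authors' p, which is smaller than the implied SE given above.

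Birc2 and Birc3 encode cIAP1 and cIAP2, ubiquitin ligases of TNF receptor signalling that act with TRAF2. The genes are neighbours on the minus strand of chromosome 9: Birc2 at 7818227 to 7837064 (ENSMUSG00000057367) and Birc3 at 7848699 to 7873186 (ENSMUSG00000032000), 11.6 kb apart with 0 annotated genes between. Their coding sequences align at 76.3% identity over 1340 bases and at 87.7% over 243 bases. Birc3 has 3 processed pseudogenes by the same search as for Cycs, and Birc2 has none. The 250 bases before each RefSeq start (GRCm38.p6, minus strand, chr9:7837058-7837307 for Birc2 and chr9:7873171-7873420 for Birc3) are shown because these neighbouring paralogs differ there. Birc2 has 2 windows in the RefSeq table, and the first is shown. Capitals mark the CRE.
Birc2: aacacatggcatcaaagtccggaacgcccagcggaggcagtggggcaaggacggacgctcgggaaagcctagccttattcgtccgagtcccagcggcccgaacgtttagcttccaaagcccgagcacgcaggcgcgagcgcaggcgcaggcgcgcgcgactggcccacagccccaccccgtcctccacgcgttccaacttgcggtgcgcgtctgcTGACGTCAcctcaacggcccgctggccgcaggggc
Birc3: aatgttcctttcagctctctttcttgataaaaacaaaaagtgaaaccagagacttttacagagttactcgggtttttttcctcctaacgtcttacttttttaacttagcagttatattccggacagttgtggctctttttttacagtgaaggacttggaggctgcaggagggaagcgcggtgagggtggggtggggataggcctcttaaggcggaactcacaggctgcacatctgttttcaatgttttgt
The Birc2 match spans positions -35 to -28 relative to the start. The Birc3 window held neither motif searched and has 43.6% G and C, against 68.4% in Birc2 and a median of 52.4% over all windows.

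Birc2 had 2.05 FPKM in UV-treated p53CryKO cells, against 3.79 in untreated p53CryKO cells, and 1.27 in UV-treated p53KO cells, against 3.01 in untreated p53KO cells (authors' deposited tables). It was lower after UV in both genotypes. Birc2 fell in p53CryKO cells (log2 fold change -0.89, implied SE 0.29, q = 0.000161 in the authors' deposited table) and in p53KO cells (-1.25, implied SE 0.33, q = 0.000169).

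Birc3 had 1.08 FPKM in UV-treated p53CryKO cells, against 2.34 in untreated p53CryKO cells, and 1.11 in UV-treated p53KO cells, against 1.78 in untreated p53KO cells (authors' deposited tables). The UV groups were close to each other, by levels set across tables normalized separately. Birc3 fell in p53CryKO cells (log2 fold change -1.12, implied SE 0.48, q = 0.000311 in the authors' deposited table) and was not called in p53KO cells (-0.67, implied SE 0.64, 95% interval -1.94 to 0.59, q = 0.137). At equal fragments it was called lower in p53KO cells as well (-1.46, recomputed q = 0.000451). That q rests on the error implied by the authors' p, which is smaller than the implied SE of 0.64.

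The other promoters were searched in the same way. RefSeq windows were found for 8 of 8 genes, 11 windows in all, for CRE and for the E-box CACGTG, which the clock factors bind. Both motifs read the same on either strand and neither contains the other. The E-box stood in 6.02% of all windows. Matches in the 8 genes were limited to the CRE of Cycs, which rose, and that of Birc2, which fell. The windows of the other 6 genes held neither motif, which says only that these letters are not in those 250 bases.

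Ratios between genes of the same group do not depend on the scaling, so they show the unequal changes directly. Cycs over Apaf1 was 172 after UV and 17.3 untreated in p53CryKO cells, and 157 after UV and 20.7 untreated in p53KO cells, from the FPKM of the authors' deposited tables. This is a 9.97-fold change in p53CryKO (log2 3.32, 95% interval 1.82 to 4.81) and a 7.61-fold change in p53KO cells (log2 2.93, 1.42 to 4.43). Cycs over Casp9 was 425 after UV and 49.0 untreated in p53CryKO cells, and 484 after UV and 30.9 untreated in p53KO cells. In both genotypes the ligand therefore moved up against the scaffold and the initiator by more than the implied error. Cycs also gained on Diablo, with a ratio of 7.08 after UV and 2.79 untreated in p53CryKO cells and 7.22 after UV and 2.32 untreated in p53KO cells (log2 changes 1.34 and 1.64, intervals above 0). Intervals treat the genes' errors as independent, which was not tested.

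The IAP antagonist gained on Birc2. Diablo over Birc2 was 24.2 after UV and 9.11 untreated in p53CryKO cells (log2 change 1.41, 95% interval 0.65 to 2.16), and 42.5 after UV and 12.0 untreated in p53KO cells (1.82, 0.96 to 2.69). Against Birc3 the interval left out 0 in p53CryKO cells, with 46.1 after UV and 14.7 untreated (1.65, 0.58 to 2.71). It reached 0 in p53KO cells, with 48.5 after UV and 20.4 untreated (1.25, -0.14 to 2.64). Against Xiap the intervals included 0: the ratio was 12.7 after UV and 6.12 untreated in p53CryKO cells (1.06, -0.13 to 2.25), and 12.6 after UV and 5.65 untreated in p53KO cells (1.16, -0.05 to 2.36). The FPKM of the 3 IAP genes summed to 7.02 after UV and 11.8 untreated in p53CryKO cells, and to 6.67 after UV and 11.2 untreated in p53KO cells. Diablo stood at 7.06 times that sum after UV and 2.93 times untreated in p53CryKO cells, and at 8.09 times after UV and 3.23 times untreated in p53KO cells. These sums are of transcripts and say nothing of the proteins' amounts.

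Ratios among the genes with lower levels after UV had wide intervals. Casp9 over Apaf1 was 0.406 after UV and 0.353 untreated in p53CryKO cells (log2 change 0.20, 95% interval -1.40 to 1.80), and 0.325 after UV and 0.671 untreated in p53KO cells (-1.04, -2.65 to 0.56). Birc2 over Birc3 was 1.91 after UV and 1.62 untreated in p53CryKO cells (0.24, -0.85 to 1.33), and 1.14 after UV and 1.69 untreated in p53KO cells (-0.57, -1.99 to 0.85). Casp6 over Xiap was 2.51 after UV and 3.22 untreated in p53CryKO cells (-0.36, -1.56 to 0.83), and 0.994 after UV and 2.12 untreated in p53KO cells (-1.09, -2.31 to 0.13). Casp9 over Xiap was 0.212 after UV and 0.349 untreated in p53CryKO cells (-0.72, -2.12 to 0.68), and 0.188 after UV and 0.424 untreated in p53KO cells (-1.18, -2.62 to 0.26). Each of these intervals includes 0.

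**Figure D3:**
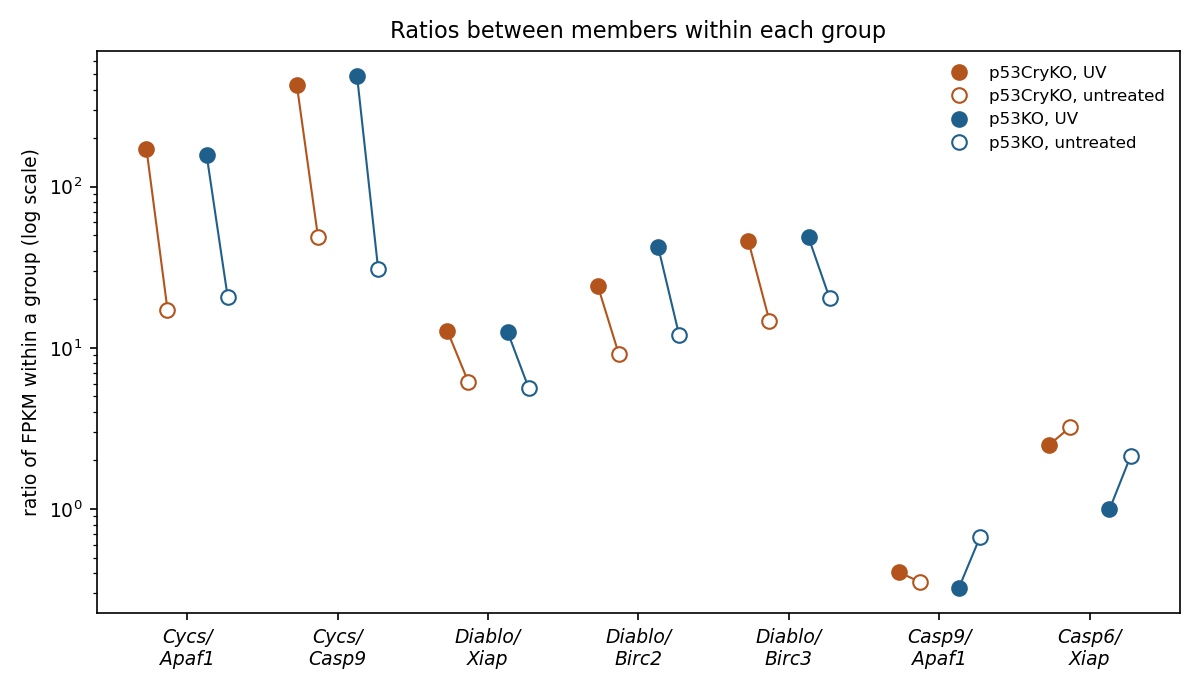
Ratios of FPKM between pairs of the 8 genes within each group on a log axis, UV-treated (filled) left of untreated (open), p53CryKO in orange left of p53KO in blue. Cycs over Apaf1 and over Casp9 show the widest gaps between UV-treated and untreated groups, and Casp9 over Apaf1 shows opposite slopes in the genotypes with intervals that include 0.

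The series title names a stronger apoptotic response to UV in cells without cryptochromes, so the difference of the UV response between genotypes was tested. The p53CryKO minus the p53KO log2 fold change was divided by its SE and read as a normal deviate, and q was taken by the Benjamini-Hochberg method over 12300 genes. Of the 8 genes 0 passed, where 22 of all 12300 did (0.179%). Among the 8, 0 had an unadjusted p under 0.05 in this test. Few of all 12300 genes had one, so that count says little about the 8. The nearest was Casp6, which fell less in p53CryKO than in p53KO cells by 0.78 (SE 0.41, 95% interval -0.03 to 1.58, q = 1.00). Casp6 held rank 413 of the 12300 with an unadjusted p of 0.0595. Fewer genes reached that p than evenly spread p-values would give, so this test was conservative and its intervals tended to be too wide. That none of the 8 passed therefore does not show equal responses. Its level after UV was 2.29 times as high in p53CryKO as in p53KO cells, and 1.34 times as high untreated, by the authors' FPKM of tables normalized separately.

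The other differences were smaller than their errors. Apaf1 differed by -0.74 (95% interval -2.57 to 1.10), Birc3 by -0.45 (-2.02 to 1.12) and Cycs by -0.35 (-1.41 to 0.71). Casp9 differed by 0.51 (-0.82 to 1.84) and Birc2 by 0.36 (-0.49 to 1.21). Diablo at -0.05 (-0.82 to 0.71) and Xiap at 0.04 (-1.46 to 1.55) had estimates near 0. All 8 intervals include 0, yet each is wide, and the narrowest, that of Diablo, still allows a difference of 0.71 upward or 0.82 downward. The calls of Apaf1 and Birc3 in p53CryKO cells alone are therefore no shown difference between the genotypes.

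**Figure D4:**
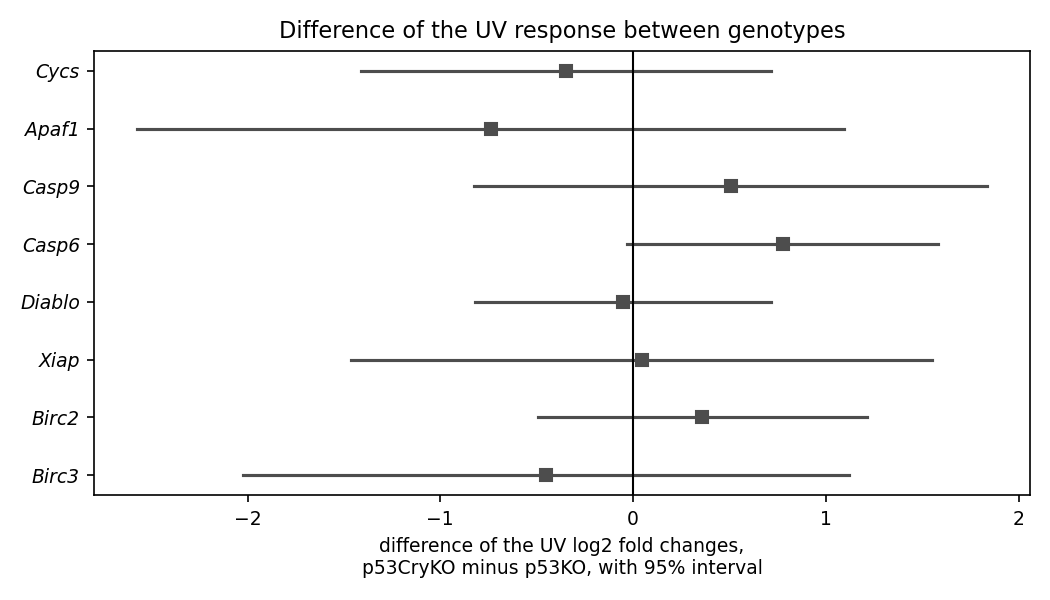
Difference of the UV log2 fold changes, p53CryKO minus p53KO, for the 8 genes (squares) with 95% intervals (lines). All 8 intervals cross 0, and that of Casp6 (-0.03 to 1.58) crosses it least.

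Levels were ordered alike in the groups at the top. Cycs came first and Diablo second in all 4. Casp6 came next in both untreated groups and in UV-treated p53CryKO cells, and in UV-treated p53KO cells it stood level with Xiap, at 4.26 against 4.29 FPKM in the authors' deposited table. Apaf1, Birc2, Birc3 and Casp9 filled the lower places, between 0.827 and 2.05 FPKM in UV-treated p53CryKO cells and between 0.804 and 2.47 in UV-treated p53KO cells. With 1 pooled value per group, neighbours in the order cannot be tested against a spread. Among all tested genes, Cycs after UV stood at percentile 97.2 of FPKM in p53CryKO and 97.4 in p53KO cells, while Casp9 after UV stood at percentile 29.0 and 27.3.

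Genes with the most similar pattern were sought by the distance between log2 FPKM in the 4 groups, each less the gene's own mean, among 8021 or 8022 tested genes with FPKM of 5 or more. Over 4 points many genes lie close, so likeness is a description of these 4 values. Nearest to Cycs were Cct8, a chaperonin subunit (distance 0.0820), Rpl14-ps1 and Dnajc2. Cct8 had log2 fold changes of 1.78 in p53CryKO and 2.20 in p53KO cells. Nearest to Apaf1 was Tsc22d3, to Casp9 Glrx, to Casp6 Dpp3 and to Birc3 Coq10b. Diablo lay nearest to Hmg20b (0.0243), Xiap to Fam175a (0.0319) and Birc2 to the nuclear export factor gene Xpo7 (0.0144).

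The wider pathway was read through 7 lists: other caspases, other proteins with the BIR domain of IAPs, IAP antagonists and other intermembrane proteins, cytochrome c maturation, apoptosome modulators, IAP partners in TNF signalling, and caspase substrates with nucleases. Of their 58 genes, 53 were tested. In p53CryKO cells 16 were called higher, 17 lower and 20 not called, with a median log2 fold change of 0.01, and in p53KO cells 13 were higher, 17 lower and 23 not called, with a median of 0.05. These counts are to be read beside the shares of all genes given above, and at equal coding FPKM 1 gene was higher in each genotype and 38 in p53CryKO and 35 in p53KO cells were lower. Among the other caspases 3 of 8 were higher and 2 lower in p53CryKO cells, and 1 was higher and 3 lower in p53KO cells. Casp2, an initiator linked to DNA damage, fell to 2.94 FPKM in UV-treated p53CryKO cells, against 11.8 in untreated p53CryKO cells, and to 2.41 in UV-treated p53KO cells, against 13.1 in untreated p53KO cells (authors' deposited tables). Casp8, the initiator at death receptors, was called higher (log2 fold changes 0.74 in p53CryKO and 0.68 in p53KO cells) but had negative fold changes at equal fragments and at equal coding FPKM in both genotypes.

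Around Cycs, the cytochrome c1 gene Cyc1 rose (1.34 in p53CryKO and 1.59 in p53KO cells; 0.32 and 0.58 at equal coding FPKM, not called), and Chchd4, an import factor of the intermembrane space, fell (-0.81 and -1.04). In that list 3 of 5 tested genes were called higher and 1 lower in each genotype, though Gfer (0.78 and 0.81) turned negative at equal coding FPKM in both genotypes and at equal fragments in p53CryKO cells, and Uqcrfs1 (0.58 and 0.55) under both scalings in both. Hccs, which attaches haem to cytochrome c, was not called (-0.21 and 0.06). Of the 8 apoptosome modulators 3 were higher and 3 lower in p53CryKO cells and in p53KO cells 2 were called in each direction. Apip, named for its interaction with APAF1, rose (1.11 and 1.15; 0.09 and 0.14 at equal coding FPKM, not called), as did Hsp90aa1 (1.57 and 1.97; 0.55 and 0.96, not called), and Ptma, which encodes prothymosin alpha, fell (-0.62 and -2.09). The difference of Ptma between genotypes, 1.48 (SE 0.40), missed the threshold (q = 0.0788).

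Among the 7 tested IAP antagonists and intermembrane proteins 2 were called higher in each genotype. Xaf1, an XIAP-binding protein induced by interferon, rose (1.87 in p53CryKO and 3.11 in p53KO cells) and was the 1 list gene still called higher at equal coding FPKM in either genotype (0.85 and 2.10). The antagonist gene Htra2 was not called (0.43 and 0.41). Neither tested BIR gene passed in the authors' deposited tables: Birc5, which encodes survivin, had log2 fold changes of 0.16 in p53CryKO (q = 0.461) and -0.38 in p53KO cells (q = 0.108), and Birc6 of -0.44 (q = 0.181) and -0.37 (q = 0.342). Of the 11 IAP partners 2 were higher and 5 lower in p53CryKO cells and 2 higher and 4 lower in p53KO cells. Map3k14, which encodes the kinase NIK that cIAPs target, fell (-2.20 in p53CryKO and -1.92 in p53KO cells), as did Traf1 (-0.91 and -1.83). Rbck1, a subunit of the linear ubiquitin ligase, rose (1.07 and 1.19; 0.05 and 0.18 at equal coding FPKM, not called). Of the 12 substrates and nucleases 3 were higher and 6 lower in p53CryKO cells and 3 higher and 7 lower in p53KO cells. Lmnb1, the lamin B1 gene, fell (-3.12 and -3.22), as did Dffb, the caspase-activated nuclease gene (-2.52 and -2.89), and the scramblase gene Xkr8 (-2.76 and -2.65). After UV, Dffb stood at only 0.327 FPKM in p53CryKO and 0.225 in p53KO cells (implied SE of the fold changes 0.83 and 1.11). Xkr8 stood at 0.221 and 0.379 FPKM (implied SE 1.30 and 0.86). The 3 genes called higher in both genotypes were Lmna (0.73 and 0.74), Gsn (0.42 and 0.50) and Sptan1 (0.86 and 1.51). Lmna and Gsn had negative fold changes at equal fragments and at equal coding FPKM in both genotypes. Sptan1 stood at -0.16 in p53CryKO and 0.50 in p53KO cells at equal coding FPKM.

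**Figure D5:**
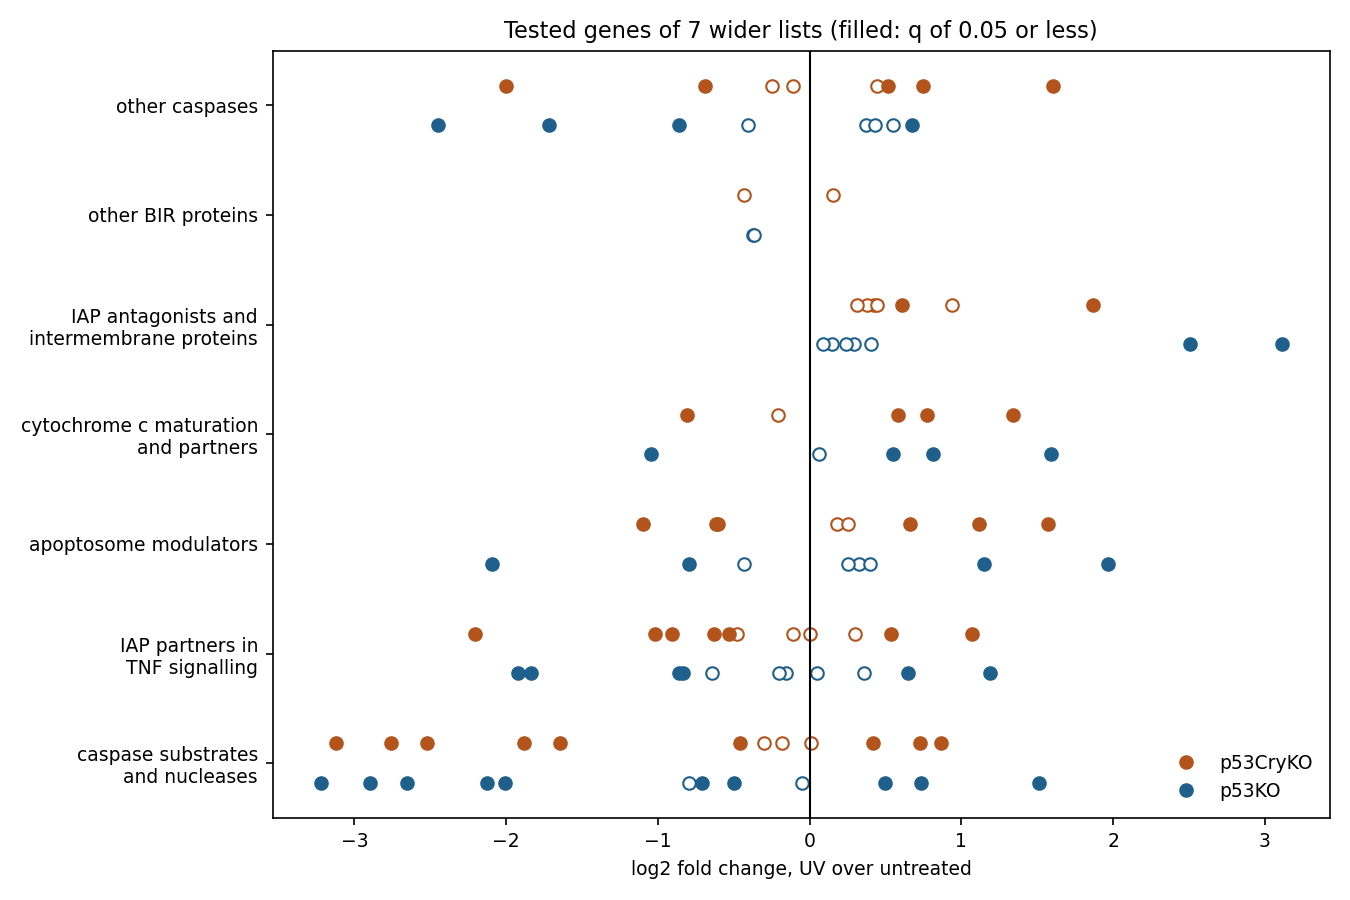
Log2 fold change after UV over untreated for the 53 tested genes of the 7 wider lists, p53CryKO (orange) above p53KO (blue) in each list, filled where q is 0.05 or less; a point is 1 gene on the authors' scale. Called genes lie on both sides of 0 in most lists, 16 higher and 17 lower in p53CryKO and 13 higher and 17 lower in p53KO cells, and at equal coding FPKM 1 gene is called higher in each.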

How the data were processed

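Poly(A)-selected RNA of 8 samples, 2 in each of 4 groups, was sequenced from both ends after TruSeq preparation, per the labels' protocols. The submitters' processing notes name FastQC 0.11.5, Trimmomatic 0.35, STAR 2.5.2, Cuffdiff and Cufflinks, and the build GRCm38. The authors deposited 1 Cuffdiff table per genotype, with 39175 rows of pooled FPKM, a test statistic (a score with a sign), a p-value and a q-value, per the file headers. The smallest p was 5e-05, shared by 4926 genes in p53CryKO and 4685 in p53KO cells. Rows not tested by the authors (23303 and 23318) were left out of the counts, and a further deposited table was not used. Depth per sample is unknown.

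Log2 fold changes were recomputed from FPKM without a pseudocount. The implied SE is the fold change over the test statistic. The difference between genotypes was read for genes tested in both tables with at least 1 FPKM in a group. The method was run on simulated data whose noise was drawn from the same implied SE. That simulation therefore cannot show whether the implied SE is right for these data. At other scalings q was recomputed from the shifted fold change and a normal distribution, with the smaller of the errors implied by the test statistic and by the p. Lengths and near copies came from GENCODE M21 with blastn 2.17.0, and promoters from RefSeq. An earlier search for longer motifs of NRF1, NF-kB and p53 is not reported here. Named were all 8 genes, up to 3 of each list called alike in both genotypes with the largest mean change, and the 3 nearest patterns, leaving out Gm models, Rik names and merged gene names; further list members were chosen after their values were seen, and some list members are not reported here. Of 62 list entries 3 were not found by that spelling. The genes and lists were chosen with earlier results of these data known. Alternatives covered call thresholds, scaling, FPKM minimums, the pseudocount and the error. Python 3.11.15 was used with numpy 2.4.6, pandas 2.3.3, scipy 1.17.1 and matplotlib 3.10.9.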

Additional observations from a re-analysis of the deposited data

How the results depend on the processing

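Of 121 single-gene fold changes recomputed under 8 alternatives with a test of their own, 101 kept direction and call, 8 lost the call, 8 gained it and 4 reversed. The 4 are Diablo, at -0.27 in p53CryKO and -0.21 in p53KO cells at equal summed FPKM times exonic length, and at -0.50 and -0.43 at equal coding FPKM. The gained calls all came at these scalings, where q used the smaller of the errors implied by the test statistic and by the p. The count of the 8 genes called higher, 2 in each genotype, became 1 in both with a minimum absolute log2 fold change of 1, under both other scalings and with a normal p, and 1 in p53KO cells at q of 0.01. The count called lower, 5 in p53CryKO and 3 in p53KO cells, became 3 in p53CryKO cells with the minimum fold change, 2 in p53CryKO and 1 in p53KO cells among genes with FPKM of 5 or more, 4 in p53CryKO cells with a normal p, and, at equal summed FPKM times exonic length and at equal coding FPKM, 6 and 7 in p53CryKO and 6 and 6 in p53KO cells. A stricter threshold, fewer genes or a common shift accounts for these by construction. With the normal p only p was replaced, and q rose where a call was lost. For Diablo in p53CryKO cells q was 0.0968, against 0.00892 from the authors' test. Why the authors' p was the smaller there was not tested. In the wider lists, equal coding FPKM left 1 higher and 38 lower in p53CryKO and 1 higher and 35 lower in p53KO cells. The 37 differences between genotypes recomputed with a test, and their count of 0, kept their side of the threshold. With a pseudocount of 1 FPKM, 16 fold changes and 8 differences were values without a test. No paired analysis was possible because the deposited values are pooled per group and carry no replicate number. Leaving out each replicate was not run for the same reason, so whether 1 library decides a value was not tested.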
